A study of Homo sapiens with 10 samples.

Results

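A set of 857 regions of the genome carried BRD9 in control G401 cells, had no BRD9 peak once SMARCB1 was switched on, and lay outside the regions that SMARCB1 itself occupied. They were chosen from the peak calls. Overlapping BRD9 peaks of 6 lists were merged into 116495 regions on chromosomes 1 to 22 and X. A region counted as lost when every one of the 3 GFP-induced lists had a peak there and none of the 3 SMARCB1-induced lists did. Lost regions that shared at least 1 bp with a SMARCB1 region were set aside. Of all merged regions 1.04% were lost, and the 857 made up 0.736%. Because these calls chose the regions, the loss itself and the absence of SMARCB1 are the definition of the set and not results, and no test was made on them.

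The assay was CUT&RUN, which releases and sequences the DNA around an antibody's target by means of a tethered nuclease. G401 is a rhabdoid tumour line that the labels give as SMARCB1 -/-, so every group lacked its own SMARCB1 gene, and doxycycline induced either SMARCB1 or, as the control, GFP. The groups used were BRD9 after GFP induction (3 lists), BRD9 after SMARCB1 induction (3 lists) and SMARCB1 after SMARCB1 induction (2 lists). SMARCB1 regions were merged SMARCB1 peaks held by both lists, 87641 in all. The model is 1 cell line, and the labels do not say whether replicates were separate cultures. Each list was called against a control library that the files do not name, and all 6 BRD9 lists share the same one in size (23.1 M reads).

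SWI/SNF complexes use ATP to move nucleosomes and open chromatin. SMARCB1 is a core subunit of the canonical (BAF) and PBAF forms of the complex, and its loss is the defining lesion of rhabdoid tumours. BRD9, a bromodomain protein that can bind acetylated lysines, belongs to the non-canonical form, which assembles without SMARCB1. Rhabdoid cells are known to depend on BRD9.

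The BRD9 libraries held 10.1 to 13.9 M reads and the SMARCB1 libraries 64.2 and 59.7 M reads. A median BRD9 peak held 17 to 23 reads, so a list without a peak at a region is not shown to lack BRD9 there. Replicate 2 of GFP-induced cells stood apart from the other lists of its group. It had the fewest peaks on these chromosomes (33112, against 43698 and 36981), and 55.7% of them lay outside SMARCB1 regions, against 78.6% and 69.2%. The count of lost regions outside SMARCB1 rested on it, being 3692 when this list was left out and both others had to hold a peak. The count was 1650 without GFP replicate 1, 1907 without GFP replicate 3 and 1319 without replicate 1 of SMARCB1-induced cells.

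Within the regions called in all 3 GFP lists, loss was set against what could have been lost. There were 8744 such regions, and 13.8% of them were lost. Outside SMARCB1 regions 20.2% of 4241 were lost, and at SMARCB1 regions 7.84% of 4503 were lost. The 353 lost regions at SMARCB1 had a similar median width to the 857 outside it (1175 and 1217 bp). The 1758 regions outside SMARCB1 that were called in all 6 lists, here called constant, were wider, at a median of 2942 bp.

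BRD9 peaks in the 857 regions were of modest strength. In the 3 lists of GFP-induced cells the highest-scoring peak of a region had a median of 24, 18 and 23 reads and a median density of 3.19, 2.95 and 3.33 RPKM, a unit that scales reads to peak length and library size. Densities ran from 2.16 to 11.3 RPKM in replicate 1, from 2.05 to 15.1 RPKM in replicate 2 and from 2.36 to 11.0 RPKM in replicate 3. The maxima of replicates 1 and 3 came from 1 region of 350 bp on chromosome 2, from 92303276 to 92303626. Constant regions outside SMARCB1 reached 85.9, 83.2 and 83.4 RPKM. How uniquely reads map at such regions was not examined. Constant regions outside SMARCB1 had 85, 39 and 64 reads and 4.31, 3.75 and 4.25 RPKM in the same lists. All 3 lists therefore placed the lost regions below the constant ones, as a description of sets that the calls had separated. Of the 857 regions 78.3% and 78.4% were in the better-scoring 50% of lists 1 and 3 by the authors' score, but 51.6% in that of list 2.

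The control library of the BRD9 lists, a measure that the choice of regions used only through the authors' peak calls, was sparse at the 857 regions. Its median density was 0.277, 0.284 and 0.276 RPKM over the peaks of the 3 lists. At the lost regions that did overlap SMARCB1 it was 0.637, 0.681 and 0.665 RPKM, above the former in every list. At constant regions outside SMARCB1 it was 0.394, 0.499 and 0.432 RPKM, and at constant regions at SMARCB1 it was 1.08, 1.13 and 1.04 RPKM. The values of 1 set share a single control library, judged by its size, and differ only through the intervals, so they are not replicates of it. Within the 857 regions control density was lower farther from SMARCB1. In replicate 1 its median was 0.331 RPKM within 10 kb of a SMARCB1 region, 0.257 RPKM at 10 to 100 kb and 0.192 RPKM beyond 100 kb. BRD9 density hardly varied over these classes, at 3.18, 3.20 and 3.18 RPKM.

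The highest points of the peaks did not always coincide. For the 857 regions the positions of the highest point in the 3 GFP lists lay a median of 407 bp apart, and in 31.3% all 3 lay within 250 bp. Among regions of 500 to 2000 bp the spread was 366.5 bp for 712 lost regions outside SMARCB1 and 129.5 bp for 532 constant ones. In that width range 33.1% and 61.8% lay within 250 bp. The peaks of constant regions held more reads, and the part of read number in this spread was not tested.

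The region with the highest mean rank by the authors' score was on chromosome 10 from 54367550 to 54370601, with 7.57, 15.1 and 6.90 RPKM in GFP replicates 1 to 3. Positions are in hg19, the build of the SMARCB1 lists, since the BRD9 lists name none. Replicate 2 was the highest, and the mean was 9.87 ± 4.58 RPKM (SD, n = 3). The control library held 0.314 RPKM there. The nearest SMARCB1 region was 7.85 kb away and the nearest gained BRD9 region 88.7 kb away. Gained regions are the mirror image of lost ones, called in all SMARCB1-induced BRD9 lists but in no GFP-induced list, and there were 8049 of them (6.91% of merged regions).

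Of the 10 regions with the highest mean rank, 5 lay in 1 stretch of chromosome 10. Besides the first, 1 ran from 54442061 to 54445451 (6.33 ± 1.82 RPKM; SD, n = 3) and another from 54380001 to 54384226 (6.79 ± 0.604 RPKM; SD, n = 3). The other pair ran from 54420326 to 54427801 (6.23 ± 2.02 RPKM; SD, n = 3) and from 54375105 to 54376976 (5.49 ± 1.79 RPKM; SD, n = 3). Their distances to SMARCB1 were between 1.89 and 20.3 kb.

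The 5 others were scattered. On chromosome 6 a region from 112617201 to 112620776 had 4.88, 8.85 and 7.16 RPKM and was 73.1 kb from SMARCB1. On chromosome 22 a region from 40436251 to 40437818 had 6.20, 9.59 and 5.89 RPKM, and SMARCB1 lay 2.16 kb away. On chromosome 4 a region from 65581101 to 65585001 had 4.07, 8.38 and 4.05 RPKM, with SMARCB1 at 1.58 kb but no gained region within 6889 kb. On chromosome 14 a region from 71363476 to 71366151 had 3.68, 7.31 and 5.77 RPKM and was the closest of the 10 to SMARCB1, at 0.80 kb. The last, on chromosome 8 from 1476726 to 1481826, had 5.36, 8.39 and 5.51 RPKM and was the farthest, at 201.6 kb. In all 10 regions replicate 2 gave the highest density of the 3 lists. Mean control densities in the 10 were between 0.255 and 0.713 RPKM, lower than BRD9 by the way peaks are called.

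**Figure D1:**
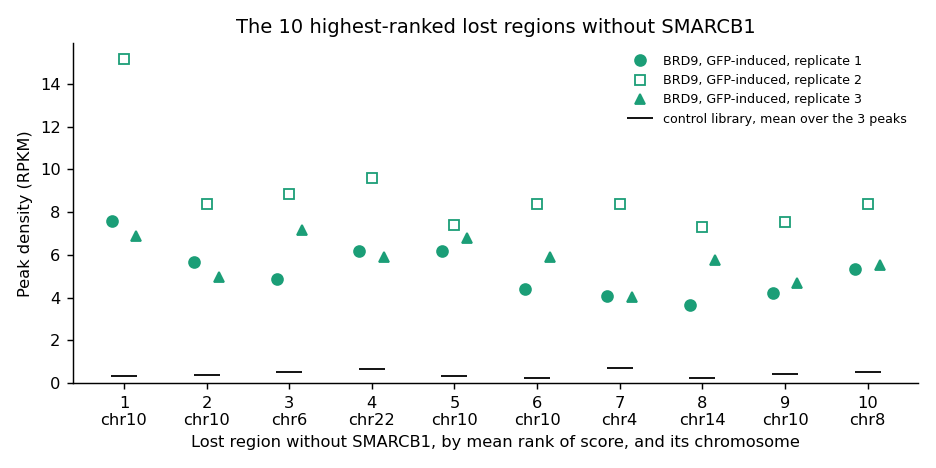
Density of BRD9 peaks (RPKM) in each GFP-induced list at the 10 lost regions outside SMARCB1 with the highest mean rank by score; black dashes are the mean density of the control library over the 3 peaks. Replicate 2 (open squares) is the highest point in every region, up to 15.1 RPKM on chromosome 10, and the control stays at or below 0.713 RPKM.

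Regions were also chosen from 4 lists at a time, with 1 replicate number left out of both groups, and looked up in the pair left out. Fewer lists gave larger sets than the set described above, so the look-up was not of that set alone. With replicate 1 left out, 2271 regions were chosen, of which 66.9% had a peak in the GFP list left out and 27.3% in the SMARCB1-induced list left out. With replicate 3 left out the shares were 52.9% and 14.2% of 2223 regions. With replicate 2 left out they were 25.5% and 10.02% of 4103 regions. The GFP share was the higher in 3 of 3 pairs. It was also the higher in every pair for constant regions outside SMARCB1, so this order alone cannot show that loss recurred. Regions are not replicates and the 3 choices share lists, so no p-value was computed. By group means, GFP lists held 1.83 times as many peaks outside SMARCB1 regions as SMARCB1-induced lists. The part of that excess in these shares was not tested.

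The same look-up put this in context. Lost regions at SMARCB1 were found again in 49.6%, 54.3% and 61.2% of cases in the GFP list left out and in 23.6%, 17.8% and 22.8% in the SMARCB1-induced one, in the order of replicates 1 to 3. Constant regions outside SMARCB1 were found in 96.8%, 82.7% and 95.2% and in 93.1%, 74.2% and 85.6%, so there too the GFP share was the higher in every pair. Regions gained outside SMARCB1 ran the other way, with 25.1%, 12.6% and 15.6% in the GFP list and 47.05%, 35.0% and 38.3% in the other. The low return of lost regions in GFP replicate 2 was therefore seen outside SMARCB1 (25.5%) and not for lost regions at SMARCB1 (54.3%), a difference that was not tested.

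**Figure D2:**
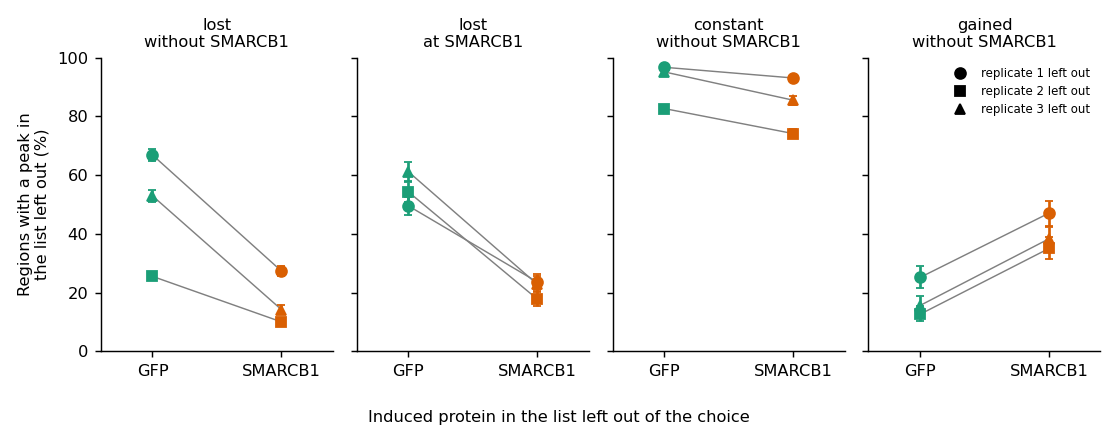
Share of regions (%) with a peak in the GFP (green) and SMARCB1-induced (orange) BRD9 list that was left out of the choice, for 4 sets of regions; each line is 1 replicate number left out, and bars are 95% Wilson intervals for counting error. All 3 lines of the lost regions outside SMARCB1 slope down, from 66.9, 25.5 and 52.9% to 27.3, 10.02 and 14.2%. Those of constant regions slope down too but stay above 74%.

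The edges of the rule were close to the authors' calling threshold. The lowest of a region's 3 scores, as −log10 of the false discovery rate, had a median of 4.71 over the 857 regions and was under 5 in 51.2% of them, where the BRD9 lists themselves begin at 3.98 or just above. Just outside the rule were 794 regions with 3 GFP calls and 1 call in SMARCB1-induced cells. Their single remaining peak had a median of 19 reads and a score of 5.68, and it was in replicate 1 in 436 of them, in replicate 3 in 213 and in replicate 2 in 145. A further 4418 regions had 2 GFP calls and 0 in induced cells, and in 2805 of them the missing call was that of GFP replicate 2. On the side of SMARCB1, 83 of the 857 regions lay within 1 kb of a SMARCB1 region and 38 within 500 bp, and the nearest one met it without sharing a base. Among the lost regions set aside, 3 overlapped SMARCB1 by 100 bp or less, and the median overlap was 909 bp.

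A SMARCB1 region needed a peak in both SMARCB1 lists, so a lost region could still hold a peak of 1 list. This was so for 114 of the 857 (13.3%, 95% Wilson interval 11.2 to 15.7%), 34 with a peak of list 1 and 92 with a peak of list 2. Of constant regions outside SMARCB1 160 of 1758 (9.1%, 7.84 to 10.5%) held one. The remaining 743 lost regions had no SMARCB1 peak of either list.

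The lost regions lay outside SMARCB1 regions, at widely varying distances. Their median distance to the nearest SMARCB1 region, edge to edge, was 12.8 kb (95% binomial interval of the median 10.5 to 15.8 kb), with quartiles of 3.3 and 97.5 kb. Within 10 kb were 389 (45.4%) and beyond 100 kb 212 (24.7%), of which 58 were beyond 1 Mb. The farthest was 3.1 Mb away. Distances of random genome positions were not computed, and how uniquely reads map at the far regions was not examined. The 188 gained regions outside SMARCB1 were about as near, at a median of 10.2 kb (8.475 to 12.9 kb) with 48.9% within 10 kb, so nearness was not particular to loss. Constant regions outside SMARCB1 lay at a median of 164.5 kb (132.45 to 189.1 kb), and 13.03% of them were within 10 kb. The intervals of the medians did not overlap, and the ratio of the medians was 12.8. It was 5.43 without GFP replicate 2, 7.18 without GFP replicate 3 or without replicate 1 of SMARCB1-induced cells, and 8.12 when SMARCB1 list 1 was left out. Regions share chromosomes and neighbourhoods and are not replicates, so the intervals describe counting error only.

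Distance grew step by step with the number of lists of SMARCB1-induced cells that kept a peak. Among regions called in 3 of 3 GFP lists and outside SMARCB1, the median was 12.8 kb with 0 such lists, 32.3 kb with 1, 69.0 kb with 2 and 164.5 kb with 3. Region width also grew along this series, from 1217 through 1552 and 1925 to 2942 bp. With widths held between 500 and 2000 bp the medians were 14.3, 40.7, 74.05 and 120.6 kb, the same order. Of this series only the ends were compared by chromosome, and lost regions were nearer than constant ones on chromosome 19 (18.7 kb for 158 lost and 38.5 kb for 274 constant regions) and on the other chromosomes (11.7 and 241.9 kb). Chromosome by chromosome, the median of the lost regions was the smaller on 22 of 23, with chromosome 21 as the exception (368.3 against 239.7 kb, with 15 lost regions). The difference was small on chromosome 13 (4.83 against 5.25 kb, with 8 constant regions) and on chromosome 22 (4.83 against 5.65 kb, with 3).

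**Figure D3:**
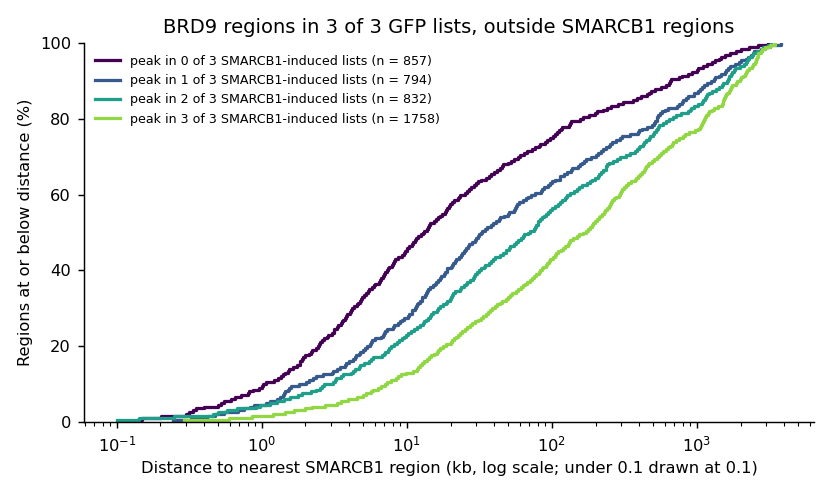
Cumulative share (%) of BRD9 regions by distance to the nearest SMARCB1 region (kb, log scale), for regions called in 3 of 3 GFP lists and outside SMARCB1, split by the number of lists of SMARCB1-induced cells with a peak. The curve of the 857 lost regions lies farthest to the left, with a median of 12.8 kb against 164.5 kb for the 1758 regions kept in all 3 lists.

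Proximity also went with the number of GFP lists. Regions without a peak in SMARCB1-induced cells and outside SMARCB1 lay at a median of 247.5 kb when 1 GFP list held a peak (37845 regions), 43.9 kb when 2 did (4418 regions) and 12.8 kb when all 3 did. Peaks of a single list were narrow, at a median of 366 bp. The distance in kb also moved with the reference: it was 9.85 kb when SMARCB1 peaks of either list counted, and 51.7 kb when each list kept an equal count of its best peaks, which leaves fewer SMARCB1 regions. It was 31.6 kb without GFP replicate 2, 24.4 kb without GFP replicate 3 and 20.6 kb without replicate 1 of SMARCB1-induced cells.

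The SMARCB1 regions nearest to the lost regions were then examined for BRD9 of their own. For the 857 regions the nearest SMARCB1 regions numbered 622, with a median width of 1025 bp against 1225 bp for all 87641. Of the 857, 43 (5.02%) had a nearest SMARCB1 region that held a gained BRD9 region, where 7.83% of all SMARCB1 regions did. Constant BRD9 was held by the nearest SMARCB1 region in 220 cases (25.7%), against 3.4% of all SMARCB1 regions. The units differ: a SMARCB1 region nearest to several lost regions counts several times in the former and once in the latter. For constant regions outside SMARCB1, whose nearest SMARCB1 regions numbered 488, the same shares were 4.95% and 24.6%. Among regions within 10 kb of SMARCB1, a gained region was held by the nearest SMARCB1 region for 4.63% of 389 lost and 10.9% of 229 constant regions, and constant BRD9 for 24.4% and 30.1%. None of these differences was tested.

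Most gained BRD9 regions overlap SMARCB1 and are far fewer than SMARCB1 regions, so the nearest gain tends to lie farther off than SMARCB1. There were exceptions. The lost region on chromosome 5 from 150331340 to 150332038 was 384 bp from a gain and 30513 bp from SMARCB1. The median distance from a lost region to the nearest gained one was 215.75 kb (95% interval 190.35 to 240.7 kb), with quartiles of 83.3 and 704.9 kb. A gained region lay within 10 kb of 40 lost regions (4.67%) and within 100 kb of 248 (28.9%). For constant regions outside SMARCB1 the median was 612.1 kb and 16.95% were within 100 kb. For lost regions at SMARCB1 it was 83.9 kb and 54.4%, and for constant regions at SMARCB1 52.9 kb and 66.2%. The lost regions outside SMARCB1 therefore lay between these sets, farther from gains than BRD9 sites at SMARCB1 and nearer than constant sites outside it. Of the gained regions 7861 of 8049 overlapped SMARCB1, so distance to gains and distance to SMARCB1 are linked. Among the 857 the median distance to a gain was 121.9 kb within 10 kb of SMARCB1, 201.1 kb at 10 to 100 kb and 865.35 kb beyond. Left-out lists moved the overall median to 145.4 kb (without replicate 3 of SMARCB1-induced cells) and to 278.0 kb (without GFP replicate 3).

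BRD9 peaks in the surroundings of the lost regions were also fewer after SMARCB1 induction, as they were around constant regions. Within 10 kb of the 857 regions, and outside them, the GFP lists had 2672, 1756 and 2332 further peaks and the SMARCB1-induced lists 1395, 1012 and 1108. The groups did not overlap, with means of 2253 ± 463 and 1172 ± 199 (SD, n = 3 each), a ratio of 1.92. Around constant regions outside SMARCB1 the GFP lists had 3881, 2045 and 3207 peaks within 10 kb and the SMARCB1-induced lists 2044, 1178 and 1452, a ratio of 1.95. Within 10 kb as a whole the ratio was thus close to that around constant regions. It was 2.10 around lost and 1.96 around constant regions within 5 kb, and 1.71 and 1.95 at 5 to 10 kb. Over all BRD9 peaks outside SMARCB1 regions the ratio of the group means was 1.83. That is an unlike class of peaks, since counts around regions also include peaks at SMARCB1. The full GFP lists had 43698, 33112 and 36981 peaks and the SMARCB1-induced lists 44399, 38127 and 40299, so these totals overlapped. As a share of each list, peaks within 10 kb averaged 5.91 and 2.85% around lost regions and 7.91 and 3.77% around constant ones. The ratios of these shares were 2.07 and 2.10. At 100 to 250 kb the ratio of peak numbers was 1.16 around lost regions and also 1.16 around constant ones.

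Many lost regions came in groups. Of the 857, 432 (50.4%, 95% Wilson interval 47.1 to 53.7%) had another one within 100 kb. Chains of lost regions with gaps of at most 100 kb numbered 561, of which 425 held 1 region, 78 held 2 and 58 held 3 or more. The 58 together held 276 regions (32.2%), and 21 chains of 5 or more held 154. Constant regions outside SMARCB1 had one of their own kind within 100 kb in 83.7% of cases, and lost regions at SMARCB1 in 41.6%, but these sets count 1758 and 353 regions and the share depends on that number. Sets of nearer size, outside SMARCB1 and called in all GFP lists, gave 51.8% (794 regions with 1 call in SMARCB1-induced cells) and 65.7% (832 regions with 2 calls). The 50.4% of the lost regions was not above either share. The share also rose with looser rules, to 73.6% without GFP replicate 2.

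Within chains, the 296 gaps between neighbouring lost regions had a median length of 21.1 kb. A further GFP peak lay in 83.8% of them. In 105 gaps (35.5%) no list of SMARCB1-induced cells had a peak, in 34.1% a constant BRD9 region lay between the lost ones, and in 95 (32.1%) a SMARCB1 region did. A gained BRD9 region lay in 15. Chains were thus of several kinds, from stretches without a BRD9 peak call in SMARCB1-induced cells to stretches where lost and constant regions alternated.

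The chains were chosen for the number of lost regions, so that GFP peaks outnumber the others in them follows from the rule, and coverage is given as a description. The chain with the most lost regions was on chromosome 10 from 54327751 to 54478623, 150.9 kb long with 13 lost regions outside SMARCB1. The GFP lists had 39, 43 and 39 peaks in it, covering 34.4, 35.6 and 34.9% of its length. The SMARCB1-induced lists had 1, 3 and 3 peaks, covering 0.215, 1.56 and 1.31%. The 3 GFP lists were alike here in peak number and coverage, replicate 2 included. Reads in these peaks numbered 2457, 4071 and 2645, and the highest densities were 9.36, 15.1 and 8.61 RPKM, so replicate 2 stood higher in both. The chain held 5 SMARCB1 regions covering 8.45 kb, 2 lost regions at SMARCB1, 0 constant and 0 gained BRD9 regions. Its 13 lost regions were between 0.85 and 27.6 kb from SMARCB1, and the nearest gained region was 48.9 kb beyond its edge. Density varied within the chain, as in a pair of regions chosen after their values were seen: the region from 54372814 to 54374151 had 3.01, 2.78 and 3.03 RPKM, and the one from 54403226 to 54405926 had 4.20, 7.44 and 4.96 RPKM.

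The chain on chromosome 6, from 112603351 to 112675401, was shorter and had no BRD9 peak call in SMARCB1-induced cells. Over its 72.05 kb the GFP lists had 12, 18 and 12 peaks and the SMARCB1-induced lists 0, 0 and 0. It held 9 lost regions, 0 SMARCB1 regions, 0 constant and 0 gained BRD9 regions, and the nearest SMARCB1 region was 59.3 kb from its edge. Each SMARCB1 list had 1 peak in it, at different places. One of its regions was among the 10 described above, and another, picked after its values were seen, ran from 112642401 to 112643901 and had 4.23, 8.16 and 4.77 RPKM.

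The chain on chromosome 17 from 67670251 to 67989431 was mixed. It had 10 lost regions in 319.2 kb, with 9 constant regions, 1 gained region and 17 SMARCB1 regions among them. GFP peaks covered 28.3, 16.7 and 22.7% of it and peaks of SMARCB1-induced cells 6.78, 5.42 and 6.84%. Its lost regions lay between 0.425 and 42.0 kb from SMARCB1, at a median of 4.08 kb.

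On chromosome 8 a chain from 145875751 to 146198351 had 9 lost and 7 constant regions with 12 SMARCB1 regions. Coverage was 16.9, 11.8 and 17.3% in GFP lists and 5.70, 3.95 and 5.51% in SMARCB1-induced lists. The nearest gained region was 1797 kb away. BRD9 was thus still called at part of the sites.

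On chromosome 19 the chain from 58494974 to 58814751 had 12 lost and 13 constant regions, and 3 SMARCB1 regions covering 1.98 kb of its 319.8 kb. GFP peaks covered 28.6, 15.8 and 22.2% and peaks of SMARCB1-induced cells 13.8, 6.31 and 5.96%. Replicate 1 of SMARCB1-induced cells (13.8%) was close to replicate 2 of GFP-induced cells here. The nearest gained region was 318.2 kb away.

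**Figure D4:**
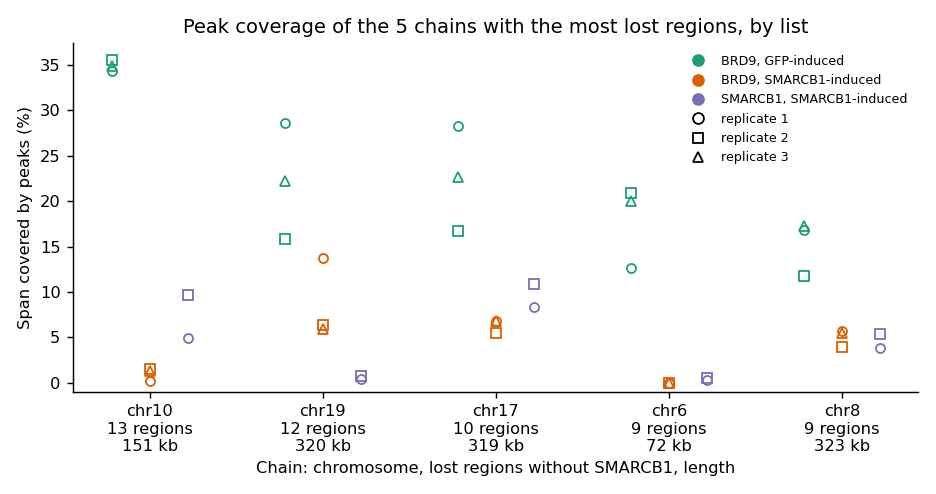
Share of each chain's span covered by peaks (%) in every list, for the 5 chains with the most lost regions outside SMARCB1; green is BRD9 in GFP-induced, orange BRD9 in SMARCB1-induced and purple SMARCB1 in SMARCB1-induced cells. Coverage of the chromosome 10 chain is 34.4 to 35.6% in the GFP lists and at most 1.56% in the SMARCB1-induced lists, the chromosome 6 chain is at 0 in the latter, and on chromosome 19 the lists run from 5.96 to 28.6%. The chains were chosen for lost calls, so the order of the BRD9 groups follows from the rule.

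All 23 chromosomes held lost regions outside SMARCB1, and chromosome 19 held 158 of them, 18.4%. It makes up 1.95% of the summed chromosome spans, each taken from the chromosome's start to its last peak, and has 2.58% of the SMARCB1 regions. Its share of the BRD9 regions that could have been lost (called in 3 of 3 GFP lists and outside SMARCB1) was 18.3%, and 20.3% of these were lost, against 20.2% over all chromosomes. The number on chromosome 19 thus followed the number of BRD9 sites there. Chromosome 19 is known for large clusters of zinc finger genes, many of them encoding KRAB repressors, but no gene positions of build hg19 were used here and the regions were not assigned to genes. Of its 158 lost regions 110 lay within 100 kb of another, and 6 of the 21 chains of 5 or more were on it. Besides the chain described, these lay at 9483651 to 9875201, 37031250 to 37288601, 52373576 to 52481151, 52795335 to 52962881, and 56924217 to 57107726.

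The share lost differed between other chromosomes. It was highest on chromosomes 13 (21 of 44, 47.7%, 95% Wilson interval 33.8 to 62.1%), 6 (44 of 111, 39.6%, 31.0 to 48.9%), 22 (13 of 34, 38.2%, 23.9 to 55.0%) and 15 (27 of 71, 38.03%, 27.6 to 49.7%). It was lowest on chromosomes 16 (16 of 190, 8.42%, 5.25 to 13.2%), 21 (15 of 175, 8.57%, 5.26 to 13.7%) and X (8 of 88, 9.09%, 4.68 to 16.9%). The intervals of chromosomes 14 (20.3 to 43.1%) and 17 (22.7 to 41.2%) also lay above the 20.2% of all chromosomes, and those of 4 (9.5 to 19.8%), 7 (10.5 to 17.7%) and 11 (8.37 to 17.6%) below it. The other 11 included it. Regions of a chain are not independent (9 of the 44 on chromosome 6 are 1 chain), so the intervals are too narrow, and no test between chromosomes was made.

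**Figure D5:**
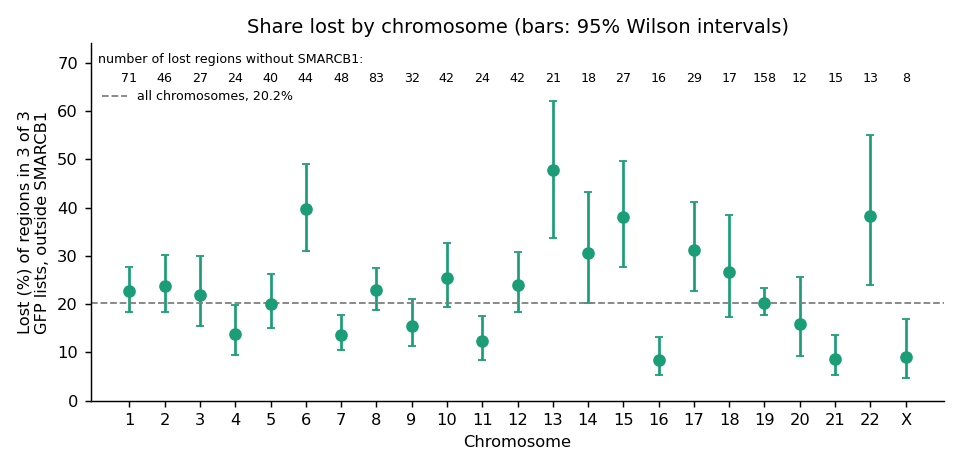
Share lost (%) of the BRD9 regions called in 3 of 3 GFP lists and outside SMARCB1, by chromosome, with 95% Wilson intervals; the dashed line is 20.2%, and the numbers above the points count the lost regions. Chromosome 19 has the most lost regions (158) at a share of 20.3%, while the intervals of chromosomes 6, 13, 14, 15, 17 and 22 lie above the line and those of 4, 7, 11, 16, 21 and X below it.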

How the data were processed

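The CUT&RUN peak lists are of 1 sample each, as deposited by the authors, with peak positions, raw counts of reads in the peak for the sample and its control, and both as RPKM. The lists also hold a −log10 false discovery rate from the authors, used here as the score, and their log2 fold differences and strand ratio (not used), per the file headers. The highest point of a peak is the authors' too. The submitters' processing notes name BWA 0.7.12-r1039, SAMtools, bedtools, DiffBind, edgeR and the builds hg19, GRCh37 and ASM584v2, with no role; the peak caller is not given in the sources used here. SMARCB1 lists are named as hg19; BRD9 lists name no build.

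Peaks of 8 lists were grouped by the sample titles. The 2 other samples (SMARCB1 after GFP induction, IgG) were not analysed here. An interval was taken as end minus start long, the length behind the deposited RPKM. In each GFP list the peak with the best score stood for a region. Named regions are the 10 with the highest mean rank by score, and the 5 chains with most regions. Members, lists and rules were chosen with earlier results of these data known. Planned tests of promoters, genes and sequence motifs needed an hg19 genome and were not run. Wilson and binomial order-statistic intervals (95%) cover counting error only; PCR reads are not independent molecules. On simulated lists 300 of 300 planted lost regions were recovered, with 2 not planted, and brute-force counts gave 0 differences. Every planted region met the rule in all simulated lists, so this checks the code and cannot show how many losses are missed in real lists. Python 3.11.15, numpy 2.4.6, pandas 2.3.3, scipy 1.17.1 and matplotlib 3.10.9 were used.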

Additional observations from a re-analysis of the deposited data

How the results depend on the processing

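Of 111 recomputed values of 6 results, 55 stayed within counting error (counts within 1.5 times), 56 moved and 0 reversed; the causes were not tested. Equal numbers of top peaks gave 85.4% of lost regions outside SMARCB1, median distances of 51.7 kb to SMARCB1 and 266.1 kb to gains, 56.5% within 100 kb of another, and a ratio of constant to lost medians of 6.60. The better-scoring 50% of each list gave 73.3%, 23.1 kb and 358.85 kb. Merging within 500 bp gave 277.6 kb to gains, 43.1% and 6.67. SMARCB1 peaks of either list gave 61.4% outside and 9.85 kb, and SMARCB1 within 1 kb gave 64.1% and 17.2 kb. Calls in at least 2 of 3 lists gave 5275 regions, 79.6%, 32.8 kb, 109.0 kb, 78.05% and 5.01. Linking distances of 50 and 250 kb gave 40.96% and 63.5%. Without chromosome 19, an alternative chosen after seeing the data as was the ratio, the values were 67.6% outside, 46.1% within 100 kb and a ratio of 20.6. Leaving out 1 list at a time gave 767 to 3692 regions, 63.4 to 84.4%, 10.7 to 31.6 kb, 145.4 to 278.0 kb, 51.1 to 73.6% and ratios of 5.43 to 12.7. The ratio stayed above 1 in its 19 alternatives, from 5.01 to 20.6.

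Same-numbered BRD9 lists shared a replicate number and had consecutive leading numbers in their titles, and the labels do not say whether they were paired. Over all merged regions their calls deviated together with correlations of 0.0095, 0.0077 and 0.0013. Many regions were called in 1 group only, such as 37845 outside SMARCB1 with a peak in 1 GFP list alone. At these the other group does not deviate, which pulls the correlation toward 0, so it cannot decide whether lists were paired. With a replicate block (a GFP peak without its partner's in at least 2 pairs and the reverse in 0) there were 6069 regions, 78.4% outside SMARCB1, 32.6 kb, 90.3 kb, 80.5% and 5.05.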
